A study of Mus musculus with 6 samples.

Results

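miR-191, miR-425 and miR-423 are miRNAs that are commonly used as internal references when other miRNAs are measured by RT-qPCR, and miR-191-5p was the reference of the RT-qPCR in this study. Their listed arms were taken by name from the table of small RNA-seq values, and every arm was kept, which gave 6 members of 1983 rows. Of the 6, 5 were above the floor of the table in all 6 libraries and 1, miR-191-3p, was at the floor in all of them. The level of each member and its spread over the libraries are described as properties of a reference.

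The libraries were made from epididymal white adipose tissue (WAT) of male C57BL6/J mice, 3 wild type (Wt) and 3 angiotensinogen transgenic (Agt Tg), with 1 library per sample. In Agt Tg mice the gene of angiotensinogen, the precursor of angiotensin II, is expressed under the aP2 promoter. This promoter is active in fat cells and, according to the study, also in macrophages. The labels give a chow diet for both groups, whereas the methods give a low fat diet, and the age of the mice is not given in the sources used here. Small RNA libraries do not measure the Agt mRNA, so that the transgene could not be checked in these samples.

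A miRNA gene is transcribed as a longer RNA with a hairpin, which the nucleases Drosha and Dicer cut to a short duplex. The strands of the duplex come from the 5′ and the 3′ arm of the hairpin, and usually the strand that is loaded into an Argonaute protein remains at a high level while the other is degraded. The loaded strand pairs with target mRNAs mainly through its seed. RT-qPCR values have no library total to be scaled to, so the target is expressed as a ratio to a reference that should be abundant and should vary little between samples and groups, and any change in the reference enters the ratio with the opposite sign.

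The mature mouse sequences of the 6 arms are shown because the arms of a locus and the 3 loci share no seed, so that each arm is a separate reference. They are the RefSeq sequences of GRCm38.p6, written 5′ to 3′, with the seed (bases 2 to 8) in capitals. All 6 names matched a RefSeq entry.
miR-191-5p: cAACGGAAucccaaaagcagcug
miR-191-3p: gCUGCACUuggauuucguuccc
miR-425-5p: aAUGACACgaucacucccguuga
miR-425-3p: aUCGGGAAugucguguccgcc
miR-423-5p: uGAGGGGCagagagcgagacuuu
miR-423-3p: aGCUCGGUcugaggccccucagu
Among the other mature mouse miRNAs in RefSeq, the seeds of miR-191-5p, miR-191-3p, miR-425-3p and miR-423-3p were found in 0. The seed of miR-425-5p was also that of miR-489-3p, and the seed of miR-423-5p was also that of miR-6921-5p. Neither was among the miRNAs tested here. The share of G and C bases was lowest in miR-425-5p (47.8%) and highest in miR-423-3p (65.2%).

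Mir191 and Mir425 lie close together on the plus strand of chromosome 9 of GRCm38, Mir191 from 108568319 to 108568392 and Mir425 from 108568777 to 108568861, with 384 bases between the hairpins. In GENCODE M21 both hairpins are in an exon of a transcript of the lincRNA gene 4833445I07Rik (108567533 to 108569174, plus strand), and Mir191 is also in an intron of a shorter transcript of that gene. A predicted miRNA gene, Gm24083, is annotated on the opposite strand of Mir191. Mir423 lies on the minus strand of chromosome 11 from 77078064 to 77078172, in an intron of the protein-coding gene Nsrp1 (77044292 to 77078435, minus strand), and no exon of Nsrp1 overlaps it.

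Values were deposited as log2 of the reads in 10000000 reads of the library, and anything under 10 had been raised to 10, which is the floor (3.32 on the log2 scale). The totals were between 6387766 and 10562634 reads, reads on listed miRNAs made up 51.8% to 57.2% of them, and 329 rows were above the floor in at least 3 libraries and were tested. All rows carry human miRNA names, and each holds those reads from mouse that were assigned to the named sequence. Wt replicate 2 stood apart, with the epididymis and testis markers (3 of 5 arms above the floor) summing to 88164 reads per 10000000 there against 867 to 1436 in the other 5 libraries, and the epithelial markers (8 of 12 arms) to 50603 against 166 to 369. Of the 4 adipose markers, miR-143-3p was abundant in every library (18.49 to 19.12) and miR-193b-3p was at the floor in all 6. miR-365a-3p was lowest in Wt replicate 2 (11.53), whereas miR-196a-5p was at 7.64 there and ran from 3.61 to 7.99 over the libraries. Because Wt replicate 2 stood apart, results are also given without it. p-values measure the spread between these samples, and whether each came from a separate mouse is not stated in the labels. No member shared its values with another row, and all pairs of libraries differed by more than counting noise.

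miR-191-5p, the 5′ arm of Mir191, was the most abundant member by far and ranked 10 among the 329 rows by mean level. Its log2 level was 17.12, 16.58 and 17.41 in Wt replicates 1, 2 and 3, and 17.23, 17.06 and 16.83 in Agt Tg replicates 1, 2 and 3. In reads the Wt libraries held 106200, 76709 and 170610 of this arm, and the Agt Tg libraries 158850, 87111 and 123300. Both the lowest and the highest library were Wt, and the Agt Tg libraries lay between them. It took a mean of 2.48% ± 0.64 of the reads on listed miRNAs in the Wt libraries, and 2.55% ± 0.38 in the Agt Tg libraries (SD, n = 3 each).

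miR-191-3p, the opposite arm, was listed at the floor in every library. The level of miR-191-5p was between 9786 and 17371 times the value of the floor, so that in each library the listed 3′ arm was lower than the 5′ arm by at least that factor. An arm at the floor opposite an abundant arm was not particular to this locus. Among 27 pairs of arms in which the more abundant arm had a mean log2 level of at least 14, the other arm was at the floor in all 6 libraries in 6 pairs. Whether the mouse arms at the floor have the same bases as the human sequences could not be checked in the sources used here. This holds for miR-191-3p and for the floor arms of the other pairs. A floor value in these rows therefore does not show how low the mouse arm was. miR-191-3p has no measured spread and cannot serve as a reference in these values.

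miR-425-5p, the 5′ arm of the neighbouring hairpin, was at 11.55, 11.24 and 11.57 in Wt replicates 1, 2 and 3, and at 11.24, 11.19 and 11.11 in Agt Tg replicates 1, 2 and 3, which stood for 1487 to 2977 reads. The Agt Tg libraries were all below the Wt libraries, but the gap between the highest Agt Tg and the lowest Wt library was 0.0015, and under each of 3 other scalings of the libraries the groups overlapped. The mean was 11.45 ± 0.18 in Wt and 11.18 ± 0.06 in Agt Tg mice (log2, SD, n = 3).

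miR-425-3p was the least abundant member above the floor, with read counts of 41, 22 and 77 for the Wt libraries in order of replicate, and of 34, 11 and 40 for the Agt Tg libraries. Its log2 levels were 5.78, 4.81 and 6.29 in the Wt libraries and 5.04, 4.11 and 5.24 in the Agt Tg libraries, so that the groups overlapped. The counting error alone was 0.28 on the log2 scale.

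The arms of Mir423 were more evenly balanced. miR-423-5p was at 13.21, 12.56 and 12.91 in Wt replicates 1, 2 and 3 and at 13.20, 12.16 and 12.81 in Agt Tg replicates 1, 2 and 3. The groups overlapped, and the lowest value was that of Agt Tg replicate 2. miR-423-3p was at 12.50, 12.18 and 12.21 in the Wt libraries and at 12.05, 11.59 and 11.74 in the Agt Tg libraries, and here all Agt Tg libraries were below all Wt libraries. The gap between the groups was 0.14 on the deposited values and 0.06 under TMM scaling.

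**Figure D1:**
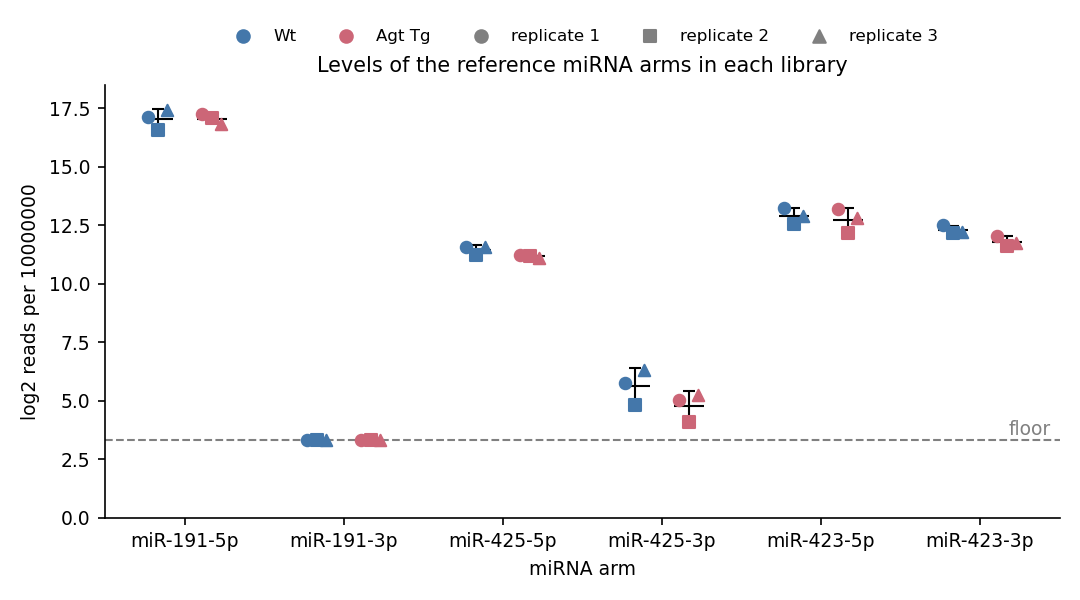
Log2 reads per 10000000 (vertical axis) of each arm (horizontal axis) in the 3 Wt and the 3 Agt Tg libraries. Points are libraries, bars are the mean and SD of 3 libraries, and the dashed line is the floor; miR-191-5p lies between 16.58 and 17.41 and miR-191-3p on the floor in all 6 libraries.

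In order of mean level the arms were miR-191-5p (17.04), miR-423-5p (12.81), miR-423-3p (12.05), miR-425-5p (11.32) and miR-425-3p (5.21). No correction for length was made. The order is one of reads, and whether the libraries captured the different arms equally well was not tested. The log2 ratio of neighbours in this order was above 0 in 6 of 6 libraries in each case. Across libraries the ranges of miR-423-5p and miR-423-3p overlapped, and the ranges of the other neighbours did not.

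The first question for a reference is whether it differs between the groups. The members were compared with limma over all 329 rows, and 0 of the 5 reached the threshold of the study, a log2 fold change of 1 or more in size with an unadjusted p not above 0.05, which 4.86% of all rows tested reached. With Benjamini-Hochberg adjustment limma left 0 of the 329 rows at an adjusted p under 0.05, while 30 (9.12%) had an unadjusted p under 0.05, 1 of the 5 members among them, and limma-voom also left 0. In bulk tissue, fewer cells of a type and less RNA per cell cannot be told apart, which holds for each of the differences that follow. The median log2 fold change of all 329 rows was −0.19 on the deposited values and −0.04 under TMM scaling.

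The log2 fold change (Agt Tg over Wt) of miR-191-5p was 0.01 with a standard error of 0.24 and a 95% interval of −0.56 to 0.57 (limma adjusted p = 0.987). In linear terms the interval ran from 0.677 to 1.49 of the Wt level, so that differences within that range were not excluded with 3 libraries per group. The means of the groups were nearly the same, 17.03 ± 0.42 in Wt and 17.04 ± 0.20 in Agt Tg mice (log2, SD, n = 3), although the single libraries were not. Without Wt replicate 2, in which miR-191-5p was lowest, the log2 fold change was −0.22. Under TMM scaling it was 0.16, and relative to the median of all rows it was 0.19.

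The other 4 arms had negative log2 fold changes on the deposited values, as did 67.5% of all rows tested. The largest by size among the more abundant arms was that of miR-423-3p, −0.50 with a standard error of 0.21 (95% interval −0.99 to −0.01, unadjusted p = 0.0455, limma adjusted p = 0.522), and under TMM scaling it was −0.35. Its unadjusted p was above 0.05 in limma under each other scaling, 0.074 with the reads on listed miRNAs, 0.092 with median of ratios and 0.119 with TMM, and it was 0.135 with limma-voom. Lower values with an unadjusted p under 0.05 were found in 4.56% of all rows. The log2 fold change of miR-423-5p was −0.17 (standard error 0.31, limma adjusted p = 0.796), and it was 0.11 without Agt Tg replicate 2. That of miR-425-5p was −0.27 (standard error 0.19, 95% interval −0.73 to 0.18, limma adjusted p = 0.587), and −0.12 under TMM scaling. That of miR-425-3p was −0.83 (standard error 0.49, limma adjusted p = 0.553), and without Wt replicate 2 it was −1.24 and reached the unadjusted threshold. The groups did not overlap in 2 of the 5 arms, miR-425-5p and miR-423-3p, both lower in Agt Tg libraries, compared with 10.6% of all rows that were lower without overlap, 6.99% that were higher and 17.6% in either direction.

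The second question is how much a reference varies from library to library whatever the group. The SD of the log2 level over the 6 libraries was 0.19 for miR-425-5p, 0.29 for miR-191-5p, 0.33 for miR-423-3p, 0.40 for miR-423-5p and 0.76 for miR-425-3p. Over the 270 rows above the floor in every library the median SD was 0.40. Counted from the smallest SD, miR-425-5p ranked 27, miR-191-5p 78, miR-423-3p 100, miR-423-5p 133 and miR-425-3p 232 of 270. The spread of low rows is wider, so that miR-191-5p was also placed among the 50 rows of highest level, where the median SD was 0.27 and miR-191-5p ranked 30. Its lowest and highest libraries differed 1.78-fold, those of miR-425-5p 1.37-fold, those of miR-423-3p 1.87-fold and those of miR-423-5p 2.07-fold. Counting error was a small part of this, 0.004 for miR-191-5p and between 0.02 and 0.03 for miR-425-5p and both arms of miR-423 on the log2 scale.

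In the plot of deviations the arms did not move alike. miR-191-5p was lowest in Wt replicate 2, where it was 0.51 below its median, whereas both arms of miR-423 and miR-425-3p were lowest in Agt Tg replicate 2. Without Wt replicate 2 the SDs of miR-191-5p and miR-425-5p were both 0.21, which put them at ranks 54 and 53 of 270. Without Agt Tg replicate 2 the SD of miR-423-5p was 0.28. With the SD taken within each genotype and pooled, it was 0.14 for miR-425-5p, 0.20 for miR-423-3p, 0.33 for miR-191-5p and 0.44 for miR-423-5p.

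**Figure D2:**
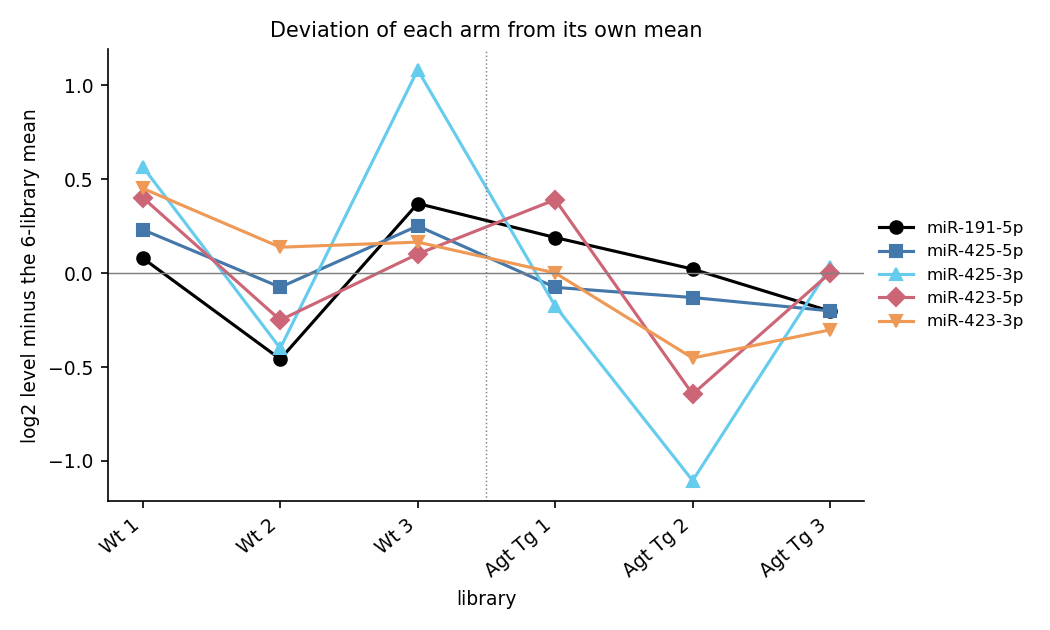
Log2 level of each arm minus its own mean over the 6 libraries (vertical axis) in each library (horizontal axis, Wt left and Agt Tg right of the dotted line). Lines only join the points of 1 arm, since replicates have no order; miR-191-5p has its lowest point in Wt replicate 2, and miR-423-5p, miR-423-3p and miR-425-3p have theirs in Agt Tg replicate 2.

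The markers of other cell types differed between the same libraries. The erythroid markers (4 of 4 arms above the floor) summed to between 50938 and 177120 reads per 10000000 in Wt and between 93086 and 207940 in Agt Tg libraries, with the lowest sum in Wt replicate 2. The 4 arms did not move alike. miR-486-5p, miR-451a and miR-144-3p were lowest in Wt replicate 2, as was miR-191-5p, whereas miR-144-5p was lowest in Wt replicate 3 (8.42). Among the Agt Tg libraries miR-486-5p was highest in replicate 1 (17.62), miR-451a in replicate 2 (12.68) and both miR-144 arms in replicate 3 (9.47 and 8.33). The leukocyte markers (4 of 4 arms above the floor) summed to between 40640 and 42067 in Wt and between 28282 and 38598 in Agt Tg libraries. Of these arms only miR-150-5p was lower in all Agt Tg than in all Wt libraries. miR-142-5p was highest in Agt Tg replicate 1 (14.15). In that library miR-142-3p (8.95) was above Wt replicate 3 (8.60), and miR-223-3p (9.82) was above Wt replicate 2 (9.68). The part of these cells in the levels of the members was not tested. The members are expressed in many cell types, blood cells included.

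The members were set beside 13 other miRNAs that are used as RT-qPCR references, all above the floor in every library. Of these, 0 reached the threshold between the groups, 9 had a negative and 4 a positive log2 fold change (median −0.07, from −0.33 to 0.19), and 11 had a smaller SD over the 6 libraries than miR-191-5p. The smallest SDs of the list were those of miR-25-3p (0.08) and miR-26a-5p (0.13), and miR-25-3p had the smallest SD of all 270 rows. It was at 13.92, 13.76 and 13.75 in Wt replicates 1, 2 and 3 and at 13.77, 13.66 and 13.78 in Agt Tg replicates 1, 2 and 3, a 1.19-fold range. miR-26a-5p was more abundant than miR-191-5p, at 17.71 to 18.08. The largest SDs were those of miR-484 (0.55) and let-7a-5p (0.50), a member of the let-7 family, whose highest library was Wt replicate 2 at 17.21. Among all 270 rows the next smallest SDs were those of miR-100-5p (0.10, mean level 15.97) and miR-26b-3p (0.12, mean level 6.84). The counting error of miR-26b-3p, a low row, was not computed.

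**Figure D3:**
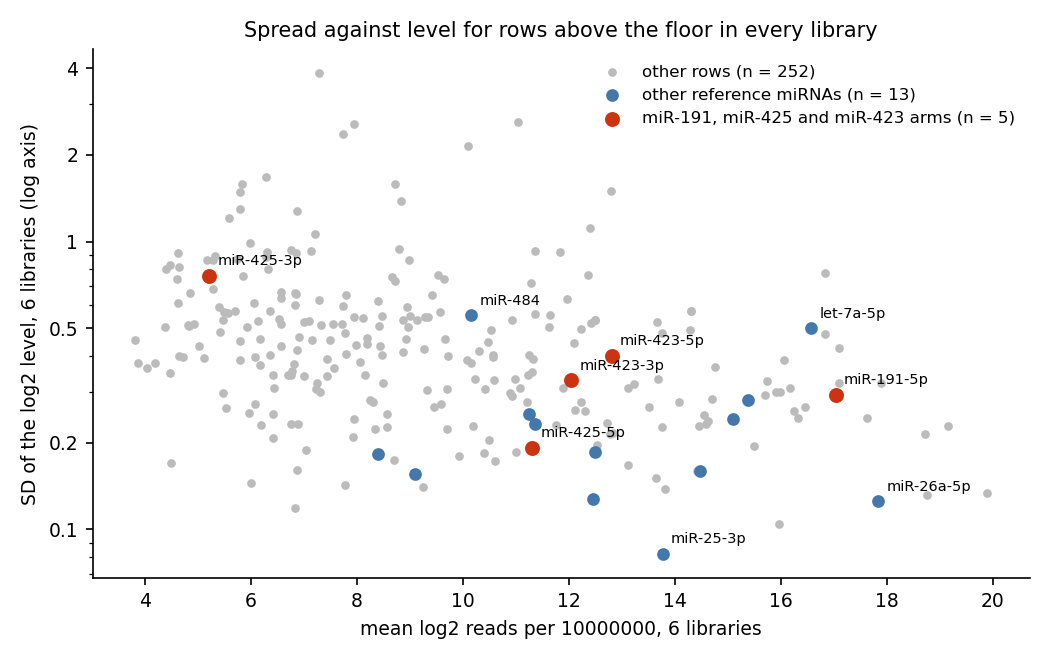
SD of the log2 level over 6 libraries (vertical log axis) against the mean log2 reads per 10000000 (horizontal axis) for 270 rows above the floor in every library. Points are rows; miR-425-5p (SD 0.19) lies below and miR-423-5p (SD 0.40) near the median SD of 0.40, and miR-25-3p (SD 0.08) is the lowest point.

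A ratio of 2 miRNAs within a library does not depend on how the libraries are scaled. The geNorm M value, the mean SD of the log2 ratios of a candidate to all other candidates, is lowest for the candidate that keeps the most constant ratios. Over the 5 arms, M was 0.35 for miR-425-5p, 0.37 for miR-423-3p, 0.40 for miR-423-5p, 0.42 for miR-191-5p and 0.61 for miR-425-3p. Over these arms and the 13 other references together, miR-425-5p had the lowest M of 18 candidates, 0.27, and miR-191-5p ranked 11 with 0.34. The next lowest were miR-186-5p (0.27) and miR-25-3p (0.28), and miR-425-3p had the highest (0.70). With each library left out in turn, miR-425-5p ranked between 1 and 3 of 18 and miR-191-5p between 7 and 13, with the 7 reached without Wt replicate 2. The candidates were chosen by hand, and M depends on which candidates are included. Candidates that vary together lower the M of each other, and arms of the same hairpin and of the neighbours Mir191 and Mir425 were included.

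Mir191 and Mir425 are neighbours in the genome, and how constant the ratio of their 5′ arms was beside that of other pairs depended on Wt replicate 2. The log2 ratio of miR-191-5p to miR-425-5p was 5.57, 5.34 and 5.84 in Wt replicates 1, 2 and 3 and 5.99, 5.87 and 5.72 in Agt Tg replicates 1, 2 and 3, or 40.5-fold to 63.4-fold. Its SD was 0.24, and 26 of the 269 other rows kept a more constant ratio to miR-191-5p. The ratio of miR-425-5p to miR-423-3p, which lie on different chromosomes, had an SD of 0.21, the smallest of the 10 pairs of members over all 6 libraries. Without Wt replicate 2 the order was the opposite, and the ratio of miR-191-5p to miR-425-5p had the smallest SD of the pairs of members, 0.16, compared with 0.20 for miR-425-5p to miR-423-3p.

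The rows with the most constant ratio to miR-191-5p were miR-1306-5p (SD of the log2 ratio 0.06), miR-99b-5p (0.08) and miR-24-3p (0.09), with a median of 0.48 over all 269 other rows. miR-99b-5p was at 18.03, 17.35 and 18.16 in Wt replicates 1, 2 and 3 and at 18.13, 18.00 and 17.64 in Agt Tg replicates 1, 2 and 3. miR-24-3p was at 11.49, 11.07 and 11.63 in the Wt libraries and at 11.56, 11.34 and 11.13 in the Agt Tg libraries. Both were low in Wt replicate 2 and in Agt Tg replicate 3, as was miR-191-5p, and miR-1306-5p had a mean level of only 5.97. Their mature sequences in RefSeq (GRCm38.p6, seed in capitals) are shown for comparison with that of miR-191-5p, whose seed none of them shares.
miR-1306-5p: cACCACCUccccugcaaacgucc
miR-99b-5p: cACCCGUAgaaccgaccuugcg
miR-24-3p: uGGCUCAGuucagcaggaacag
The genes lie on other chromosomes than Mir191, Mir1306 on chromosome 16, Mir99b on chromosome 17, and Mir24-1 and Mir24-2 on chromosomes 13 and 8.

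The rows closest to miR-425-5p were miR-148b-3p (SD of the log2 ratio 0.06), miR-30d-5p (0.08) and miR-106b-3p (0.08), against a median of 0.42. miR-30d-5p, at 15.92 to 16.58, was the abundant one of these. The rows closest to miR-423-5p kept less constant ratios. They were miR-4450 (0.19), miR-132-5p (0.20) and miR-671-3p (0.21), against a median of 0.50, and only miR-671-3p, at 9.25 to 9.90, was well above the floor. These rows were selected as the smallest of 269 on the same 6 libraries, and their values are a description. Counting error was not computed for them. It was 0.28 for miR-425-3p at a mean level of 5.21 and 0.09 for miR-152 at 8.41. These errors are larger than the SDs of 0.06 for miR-1306-5p and miR-148b-3p (mean levels 5.97 and 8.71).

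**Figure D4:**
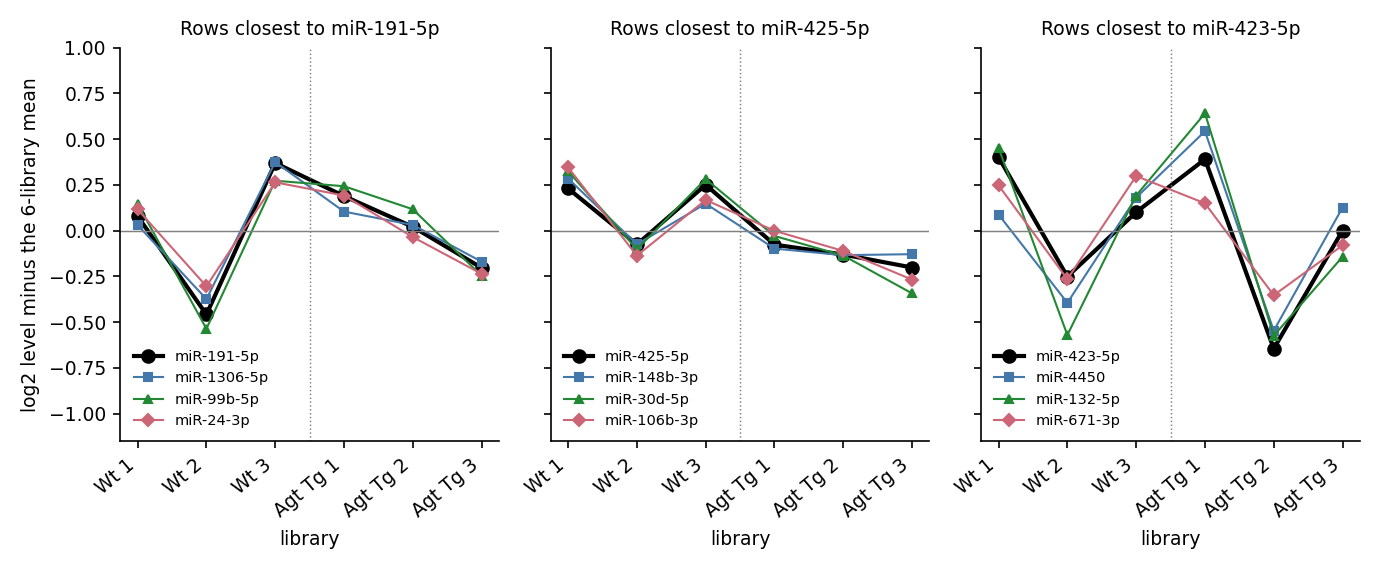
Log2 level minus the mean over 6 libraries (vertical axis) in each library (horizontal axis, Wt left and Agt Tg right of the dotted line) for the more abundant arm of each locus and its 3 closest rows. Lines only join the points of 1 row; in the left panel all 4 rows have their lowest point in Wt replicate 2, and the rows around miR-423-5p in the right panel are spread more widely.

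Whether the balance of arms and loci differed between the groups was tested with exact two-sided permutation tests on 5 log2 ratios, where 3 libraries against 3 cannot give a p under 0.1. The log2 ratio of miR-423-5p to miR-423-3p was 0.71, 0.37 and 0.70 in Wt replicates 1, 2 and 3 and 1.15, 0.57 and 1.07 in Agt Tg replicates 1, 2 and 3. The 5′ arm was the higher arm in 6 of 6 libraries, with 56.5% to 69.0% of the reads of both arms. The mean ratio was 0.33 higher in Agt Tg mice (exact permutation p = 0.3, adjusted p = 0.625), and the groups overlapped. For Mir425 the 5′ arm took 97.5% to 99.3% of the reads, and the log2 ratio differed by 0.56 (exact permutation p = 0.4, adjusted p = 0.625). The ratio of miR-191-5p to miR-425-5p was 0.28 higher in Agt Tg mice (exact permutation p = 0.2, adjusted p = 0.625), and in both remaining pairs of loci the difference was 0.17 and 0.10 (exact permutation p = 0.5 and p = 0.8, adjusted p = 0.625 and 0.8).

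The last question is what the choice of the reference does to the comparison of the groups. Every row was divided by the level of a reference in its own library, as in RT-qPCR, and limma was fitted again. On the deposited values, scaled to library totals, 16 of 329 rows reached the threshold, 9 higher and 7 lower in Agt Tg mice, and under TMM scaling 12 were higher and 4 lower. Scaled to miR-191-5p, 14 of 328 rows did, 8 higher and 6 lower, and 13 of the 14 were among the 16. Since the mean level of miR-191-5p was nearly the same in both groups, the median log2 fold change of all rows hardly moved (−0.19). The standard errors were larger, with a median of 0.391 against 0.335. Scaled in this way miR-3607-3p, miR-4488 and miR-767-3p no longer reached the threshold and miR-296-5p did (log2 fold change −1.54, unadjusted p = 0.0285, limma adjusted p = 0.647). The log2 fold changes of these rows hardly moved, from −1.13, 1.16, −1.02 and −1.54 on the deposited values to −1.13, 1.16, −1.03 and −1.54, and only the p crossed the threshold.

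Scaled to miR-425-5p, 18 rows reached the threshold, 15 higher and 3 lower, with a median log2 fold change of 0.08 and a median standard error of 0.334. Scaled to miR-423-3p, 28 rows did, 27 of them higher (96.4%), and the median log2 fold change was 0.32. Only 10 of these 28 were among the 16. Scaled to miR-423-5p, 13 rows did, 10 higher and 3 lower, with a median standard error of 0.476. Of the 13, 10 were among the 16 and the others were miR-196b-5p, miR-31-5p and miR-3195. Scaled to miR-425-3p, which had few reads, 24 rows did, and the median standard error was 0.758. With the mean of the 5 arms the count was 20, with 18 higher, and with the mean of the 13 other references it was 15, with 10 higher. Under each of these references limma left 0 rows at an adjusted p under 0.05, while between 13 and 53 had an unadjusted p under 0.05. Over the deposited values and the 5 arms as references, 40 rows reached the threshold at least once and 8 did each time, miR-3648, miR-4279, miR-4478, miR-4492, miR-4651, miR-4757-5p, miR-612 and miR-6724-5p. Of these 8, only miR-3648 and miR-4492 were above the floor in every library. Each of the others had a value at the floor, which enters its fold change, and scaling to a reference shifted that value too. Not all of these 8 held under other settings. A filter of a mean CPM of at least 10 left 208 rows to test, and of the 8 only miR-4492 was at the threshold there. Rows removed by that filter were not tested, so their absence is not a changed result. On log2(CPM + 1) miR-4279, miR-4651, miR-4757-5p and miR-612 did not reach the threshold. miR-3648 did not reach it without a filter or with the replicate number as a block.

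**Figure D5:**
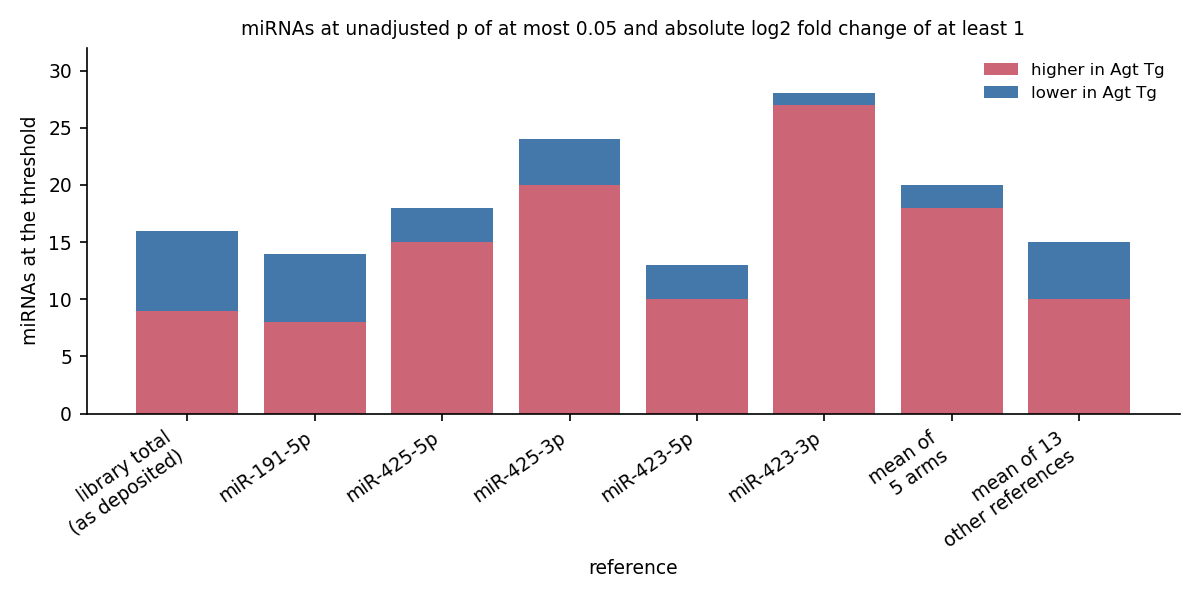
Number of rows at the threshold (vertical axis; unadjusted p not above 0.05, log2 fold change of 1 or more in size), higher (red) or lower (blue) in Agt Tg than in Wt mice, for each reference (horizontal axis). The stacked bars start at 0; the count is 16 with library totals, 14 with miR-191-5p and 28 with miR-423-3p, where 27 are higher.

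Without Wt replicate 2, more rows reached the threshold both with and without miR-191-5p as the reference. Scaled to miR-191-5p, the count of rows at the threshold was 26 without Wt replicate 2, with 19 higher, compared with 23 without it on the deposited values, with 12 higher. Scaled to miR-191-5p without Wt replicate 2, limma gave miR-196a-5p and miR-196b-5p an adjusted p of 0.016 each (log2 fold changes 3.06 and 2.98). On the deposited values without the same library limma gave each an adjusted p of 0.299. There the log2 fold changes were of nearly the same size, 2.84 and 2.76. The standard errors were 0.525 and 0.494 in the first fit and 0.598 and 0.602 in the second. Limma also estimated its prior variance anew in each fit. The unadjusted limma p of miR-196a-5p was 9.7e-05 in the first fit and 0.003 in the second. How much of this difference came from the reference and how much from the prior variance was not tested, so it does not rank miR-191-5p as a reference. Scaled to the mean of the 5 arms without Wt replicate 2, limma left 10 rows at an adjusted p under 0.05, the lowest 0.00079. In that fit the median log2 fold change of all rows was 0.37, and 36 of the 37 rows at the threshold were higher. The mean of the 5 arms includes miR-425-3p, which had few reads and a log2 fold change of −1.24 on the deposited values without Wt replicate 2. The levels of miR-196a-5p were 7.64 in Wt replicate 2, at most 5.0037 in the other Wt libraries, and 7.99, 6.93 and 6.51 in Agt Tg replicates 1, 2 and 3, so that Wt replicate 2 lay within the Agt Tg libraries. Both miRNAs were chosen here after their values were seen, and miR-196a-5p is also on the list of adipose markers. The count scaled to miR-191-5p was also 26 without Agt Tg replicate 1, and it was 9 without Wt replicate 1, 8 without Agt Tg replicate 2 and 6 without Agt Tg replicate 3.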

How the data were processed

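Small RNA libraries of 3 Wt and 3 Agt Tg samples were analysed, with groups taken from the sample titles. The authors mapped reads to miRBase precursors, kept reads on mature miRNAs and used the Gunaratne Next Generation Pipeline. Their processing notes also name Qseq version 12 and the build GRCm38.p4. Which miRBase release was used, and how many mismatches, is not given in the sources used here. Deposited values are log2 of reads per 10000000 with a floor of 10, which was worked out from the values: 1924 of 1924 values above the floor were whole reads within 0.02 reads. 0 columns were left without a sample.

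limma 3.58.1 in R 4.3.3 was fitted to all 329 rows above the floor in at least 3 libraries, with genotype as the only term and the prior variance following the level, and Benjamini-Hochberg adjustment was over all of them. The test was tried on simulated data. TMM factors (30% of the log ratios and 5% of the levels trimmed) were computed from the recovered reads, and limma-voom took floor values as the reads the floor stood for. Without a filter, 373 rows not constant at the floor could be tested. Scaling to a reference subtracted its log2 value in each library. Ratios and ranks were computed with Python 3.11.15 and figures with matplotlib 3.10.9.

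The members, the lists of references and markers, and the tests were chosen with earlier results of these data known. Named rows were the members, the 3 rows closest to the more abundant arm of each locus, the 3 rows of smallest SD among all rows and among the 50 most abundant, the 2 references with the smallest and the 2 with the largest SD, and rows at the threshold only with a reference where there were 5 or fewer. In addition, the erythroid, leukocyte and adipose markers, the rows lost with miR-191-5p and the 8 rows common to all references are named after their values were seen. Alternatives were log2(CPM + 1), other scalings, limma-voom, other filters, the replicate number as a block, and leaving out each library. The gene expression arrays, the RT-qPCR and miR-690 were not analysed here.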

Additional observations from a re-analysis of the deposited data

How the results depend on the processing

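The log2 fold changes of the 5 arms kept their direction and their side of the threshold in 69 of 74 recomputed values. Some of these values could not differ, since a row filter or a balanced replicate block leaves the log2 fold change of a row unchanged. That of miR-191-5p ranged from −0.22 to 0.19 with each library left out, and was −0.22 when Wt replicate 2 was left out, −0.09 when Agt Tg replicate 1 was and −0.0043 when Agt Tg replicate 2 was. That of miR-423-5p ranged from −0.41 to 0.11, and that of miR-425-3p from −1.24 to −0.49. The number of rows at the threshold, 16 on the deposited values, was 7 with limma on log2(CPM + 1) and 28 scaled to miR-423-3p. It was 3 with a mean CPM of at least 10, a filter that left 208 rows to test. With each library left out it ran from 12 to 35 (35 without Agt Tg replicate 1). With a library left out, chosen after seeing the data, the count scaled to miR-191-5p (14) ran from 6 to 26 and that scaled to the mean of the 5 arms (20) from 12 to 37 (without Wt replicate 1 it was 12, without Wt replicate 2 37 and without Agt Tg replicate 2 13). The SD of miR-425-5p was 0.10 with median of ratios scaling, and that of miR-423-3p was 0.20 when pooled within genotype. The other recomputed SDs and all geNorm M values stayed within 1.5 times. The difference of the ratio of miR-191-5p to miR-423-5p ran from −0.12 to 0.35 with each library left out, that of miR-423-5p to miR-425-5p from −0.10 to 0.39, that of miR-425-5p to miR-425-3p from 0.21 to 0.86, that of miR-191-5p to miR-425-5p from 0.15 to 0.41 and that of miR-423-5p to miR-423-3p from 0.22 to 0.51. The cause of these changes was not tested. miR-425-3p was below a mean CPM of 10 and has no value under that filter.

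The replicate numbers share only a number. Deviations of same-numbered libraries correlated at 0.22, −0.18 and −0.21 across rows. With the replicate number as a block, 17 rows reached the threshold, 0 members among them, and the unadjusted limma p of miR-423-3p was 0.076. A balanced block leaves log2 fold changes unchanged, so that of miR-191-5p stayed 0.01 and no member could reach a size of 1. With a floor worth between 6.39 and 10.6 reads, levels of miR-191-3p below it were not detectable at this depth. Whether this human-named row could hold the reads of the mouse arm was not checked.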
